A study of Mus musculus with 8 samples.

Results

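The 8 probe sets described here measure 6 genes of circulating red blood cells in embryonic mouse forebrain: the embryonic globins Hba-x, Hbb-y and Hbb-bh1, the adult globins Hba-a1 and Hbb-b1, and Alas2, an enzyme of haem synthesis. They were chosen by probe set identifier from the 45101 of a whole-genome Affymetrix mouse array, and a gene name stands beside each identifier in the list that chose them. Hba-a1 and Hbb-bh1 have 2 probe sets each. RNA came from forebrain dissected out at E9.5, with 4 arrays from wild type embryos and 4 from VEGF120 embryos, both on a C57Bl/6 background. VEGF120 embryos carry a cDNA knock-in at the VEGF-A gene, so that VEGF120 is the one isoform they make and VEGF164 is missing. VEGF-A drives the growth of blood vessels, and the blood inside the vessels was dissected along with the brain wall. Whether an array holds 1 embryo or a pool is not given in the sources used here, and a p-value here reflects array-to-array spread alone, part of which may be technical.

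Haemoglobin is a tetramer of a pair of alpha-like and a pair of beta-like chains, each holding a haem group. In the mouse the first red cells, called primitive erythroid cells, arise in the yolk sac and carry embryonic haemoglobins, while definitive red cells, made later and mainly by the fetal liver, carry adult globins. Primitive cells also switch as they mature in the bloodstream, from Hbb-bh1 towards Hbb-y and from Hba-x towards Hba-a1. Neural cells are not a known major source of embryonic globin, so these transcripts are commonly read as a measure of blood in a dissected tissue. In bulk RNA, fewer red cells and less RNA per cell cannot be told apart.

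In the RefSeq table of assembly GRCm38.p6 the alpha-like genes Hba-x and Hba-a1 lie on chromosome 11, the beta-like genes Hbb-y and Hbb-bh1 on chromosome 7 and Alas2 on chromosome X. On chromosome 7 of this C57BL/6J assembly the adult beta genes are listed as Hbb-bs and Hbb-bt, and Hba-a1 has a close copy, Hba-a2, so an adult globin probe set may read more than 1 gene. The suffixes _x_at and _s_at of the array mark probe sets that can share sequence with other transcripts. The 150 bases before the start of transcription are shown for the 4 of 6 genes with an entry in the RefSeq promoter table (GRCm38.p6). Capitals mark 3 short motifs on either strand: CACCC, bound by KLF1 among other factors, CCAAT, and the GATA motif, taken as GATA with A or T before it and A or G after it, bound by GATA1, a master factor of red cells. No marked motifs overlap, and the 3 CACCC copies of Alas2 abut.
Hba-x, chr11:32276450-32276599, plus strand: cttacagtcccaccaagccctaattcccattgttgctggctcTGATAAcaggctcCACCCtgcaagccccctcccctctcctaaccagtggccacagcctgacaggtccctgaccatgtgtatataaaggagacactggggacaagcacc
Hba-a1, chr11:32283522-32283671, plus strand: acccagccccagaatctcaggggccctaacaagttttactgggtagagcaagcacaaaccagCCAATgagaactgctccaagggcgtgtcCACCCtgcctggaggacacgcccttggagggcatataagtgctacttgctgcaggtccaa
Hbb-y, chr7:103853208-103853357, minus strand: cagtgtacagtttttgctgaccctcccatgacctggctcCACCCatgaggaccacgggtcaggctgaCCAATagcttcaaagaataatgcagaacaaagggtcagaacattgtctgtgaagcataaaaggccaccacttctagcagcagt
Alas2, chrX:150547267-150547416, plus strand: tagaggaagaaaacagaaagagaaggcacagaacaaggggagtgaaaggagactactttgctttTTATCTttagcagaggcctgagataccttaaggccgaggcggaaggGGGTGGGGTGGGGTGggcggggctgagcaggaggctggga

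All 4 windows held CACCC, which 37.4% of 32851 promoter windows of the same length also held. Alas2 held 3 copies on the opposite strand, between 40 and 26 bases before the start. Hba-x held a GATA motif 108 to 103 bases before the start and Alas2 held one 86 to 81 bases before it, against 16% of all windows. CCAAT stood in Hba-a1 and Hbb-y, 88 to 84 and 83 to 79 bases before the start, and in 24.5% of all windows. These matches describe the letters in these windows and say nothing of what is bound there.

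The deposited values are MAS5 signals on a linear scale, and differences below are on the log2(signal + 16) scale, which barely alters probe sets this bright. Genotypes were compared with limma over the 27022 probe sets above a brightness filter, with Benjamini-Hochberg adjustment over all of them, and all 8 member probe sets passed the filter. The number of arrays limits the precision. The median signal of an array lay between 56.1 and 59.6 for wild type and was higher for VEGF120, between 62.3 and 68.5. The log2 ratio of 3′ to 5′ Gapdh control signals, which rises as RNA is shorter or less intact, was −0.37 to −0.29 in wild type, −0.33 to −0.26 in VEGF120 replicates 1 to 3 and −0.04 in VEGF120 replicate 4. The ratio for β-actin was also highest on VEGF120 replicate 4, at 0.69 against 0.30 to 0.43 elsewhere.

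Embryonic globin signal was close to the top of every array, and the estimated differences between genotypes were small. The largest log2 difference among the 3 embryonic genes was 0.15 ± 0.13 (SE), for Hbb-y. By mean signal, 5 of the 8 probe sets ranked among the 150 brightest of the array: those of Hba-x, Hbb-y and Hbb-bh1 and 1 of the probe sets of Hba-a1. Hbb-y was the brightest of the set, with rank 6 by mean signal and ranks between 1 and 32 on single arrays.

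Hba-x encodes the zeta chain, the alpha-like chain of embryonic haemoglobin. Its signal was 15184, 14152, 19806 and 15277 on wild type replicates 1 to 4 and 15690, 18125, 19219 and 14754 on VEGF120 replicates 1 to 4. The highest array was wild type replicate 3, the lowest was wild type replicate 2, and the genotypes overlapped. The log2 difference was 0.08 ± 0.12 (SE), with a 95% interval of −0.17 to 0.33 and a limma adjusted p of 0.836. It became 0.18 when wild type replicate 3 was left out, 0.02 when wild type replicate 2 was, and 0.01 when VEGF120 replicate 3 was.

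Hbb-y encodes the epsilon-y chain, the beta-like chain that comes to prevail in maturing primitive cells. Its signal was 17327, 15321, 24865 and 19462 in wild type and 21840, 20938, 22107 and 19144 in VEGF120. The VEGF120 arrays lay within 1.15-fold of each other, inside the 1.62-fold range of the wild type arrays. The log2 difference was 0.15 with a 95% interval of −0.12 to 0.42 and a limma adjusted p of 0.698. Leaving out wild type replicate 2 gave 0.05, and leaving out wild type replicate 3 gave 0.28.

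Hbb-bh1 encodes the beta-h1 chain, the beta-like chain of the earliest primitive cells. Probe set 1437810_a_at read 15729, 12857, 20439 and 15300 in wild type and 13039, 19485, 20983 and 12738 in VEGF120. Within VEGF120 it was high on replicates 2 and 3 and low on replicates 1 and 4, and the genotypes overlapped. Probe set 1450736_a_at read 12925, 11837, 17392 and 15453 in wild type and 12161, 15168, 16882 and 11827 in VEGF120, with the same pair of VEGF120 arrays on top. The log2 differences were 0.03 ± 0.17 and −0.04 ± 0.14 (SE), with limma adjusted p of 0.970 and 0.937.

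**Figure D1:**
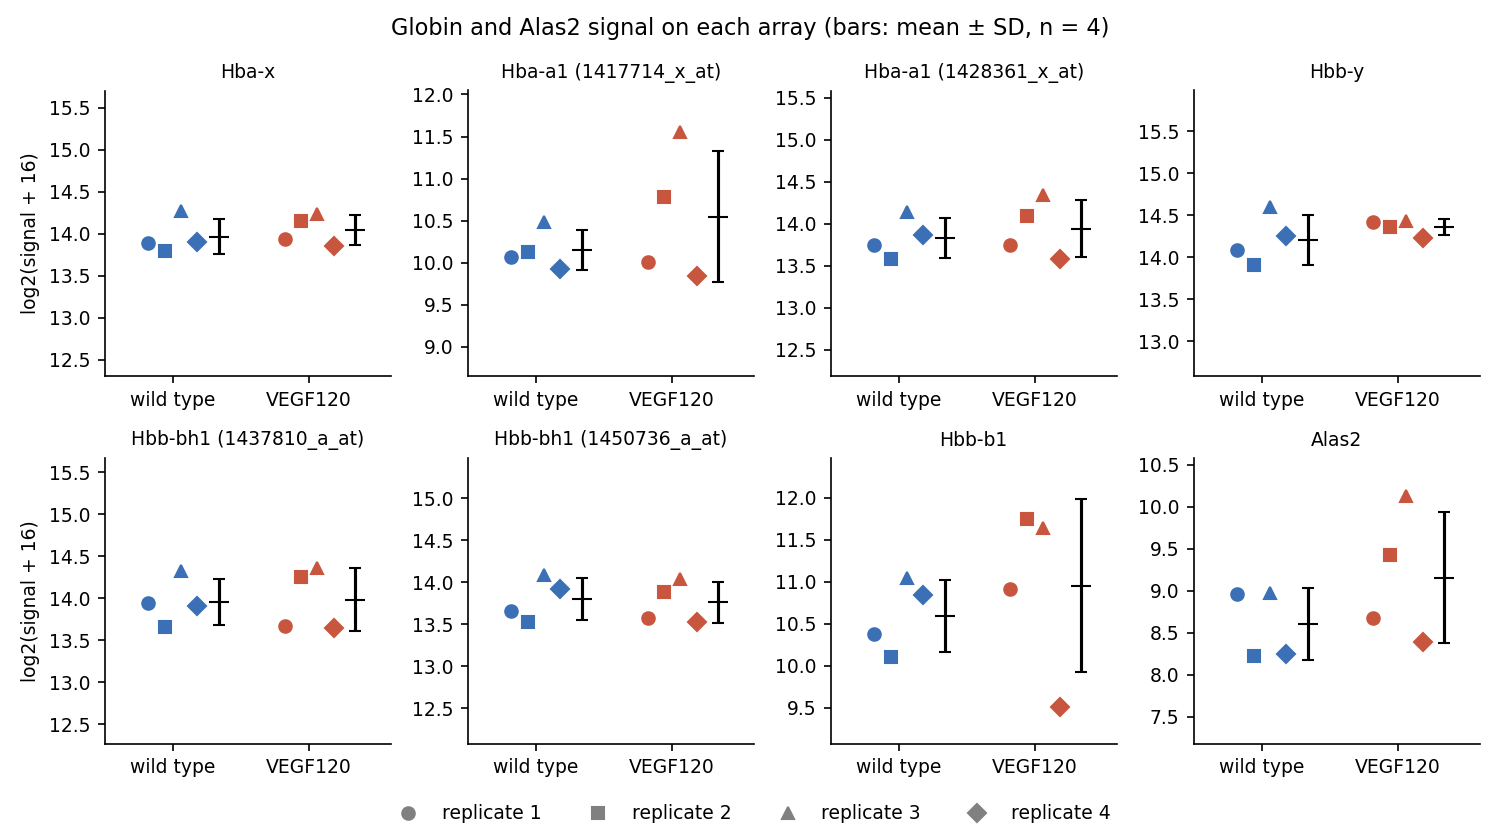
Log2(signal + 16) of the 8 probe sets on each array, with wild type in blue, VEGF120 in red, 1 marker shape per replicate number and the mean ± SD of 4 arrays beside each group. All panels span the same number of log2 units, and the genotypes overlap in every panel, with the widest VEGF120 spread for Hbb-b1 (SD 1.03), Hba-a1 by 1417714_x_at (SD 0.78) and Alas2 (SD 0.78).

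Hbb-b1, Alas2 and the dimmer Hba-a1 probe set had larger SDs between VEGF120 arrays than any embryonic globin probe set, whereas the brighter Hba-a1 probe set, at 0.34, lay within the embryonic range of 0.09 to 0.38. VEGF120 replicates 2 and 3 stood above all wild type arrays for Hbb-b1, Alas2 and 1 Hba-a1 probe set, and VEGF120 replicate 4 lay below all wild type arrays for Hbb-b1 and for that Hba-a1 probe set. VEGF120 replicate 4 also lay narrowly below them for both probe sets of embryonic Hbb-bh1. It read 12738 against a wild type lowest of 12857 for 1437810_a_at, and 11827 against 11837 for 1450736_a_at. No difference between genotypes passed the test.

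Hba-a1 encodes the alpha chain of adult haemoglobin and is also made by maturing primitive cells. Probe set 1417714_x_at read 1055, 1104, 1412 and 951 in wild type and 1014, 1748, 2984 and 904 in VEGF120. The VEGF120 arrays spanned 3.30-fold, from below the lowest to above the highest wild type array. Its log2 difference was 0.40 with a 95% interval of −0.22 to 1.02 and a limma adjusted p of 0.644. It was 0.06 without VEGF120 replicate 3 and 0.63 without VEGF120 replicate 4. Probe set 1428361_x_at, the brighter of the pair, read 13702, 12209, 18069 and 14878 in wild type and 13772, 17482, 20688 and 12282 in VEGF120. Its VEGF120 arrays spanned 1.68-fold, and its log2 difference was 0.11 ± 0.16 (SE; limma adjusted p = 0.821).

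Hbb-b1 encodes the major beta chain of adult haemoglobin in strains that carry that gene. The C57BL/6J assembly lists Hbb-bs and Hbb-bt as its adult beta genes, and these embryos were on a C57Bl/6 background. Hbb-b1 is therefore used here as the name of the probe set, and which adult beta gene it read was not tested. The signal of this probe set was 1312, 1087, 2096 and 1815 in wild type and 1910, 3418, 3185 and 712 in VEGF120. VEGF120 replicates 2 and 3 were above every wild type array and VEGF120 replicate 4 was below every one, so that VEGF120 spanned 4.80-fold and wild type 1.93-fold. The log2 difference was 0.36 ± 0.38 (SE), with a 95% interval of −0.46 to 1.19 and a limma adjusted p of 0.758. Without VEGF120 replicate 4, the array with the highest 3′ to 5′ ratios, the difference was 0.84 ± 0.23 (limma unadjusted p = 0.00293, adjusted p = 0.606), and the part of RNA quality in this was not tested. Without wild type replicate 2 the difference was 0.20, without VEGF120 replicate 2 it was 0.10 and without VEGF120 replicate 3 it was 0.13.

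Alas2 encodes 5-aminolevulinate synthase of red cells, the first and rate-limiting step of haem synthesis, and its loss blocks haemoglobin assembly. Its signal was 484, 283, 487 and 287 in wild type and 392, 672, 1105 and 320 in VEGF120. The wild type arrays fell into a higher and a lower pair, and only VEGF120 replicates 2 and 3 exceeded the higher pair. The log2 difference of 0.55 ± 0.31 (SE) was the largest of the 8. Its 95% interval was −0.12 to 1.23 and its limma adjusted p was 0.565. The difference was 0.23 without VEGF120 replicate 3.

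**Figure D2:**
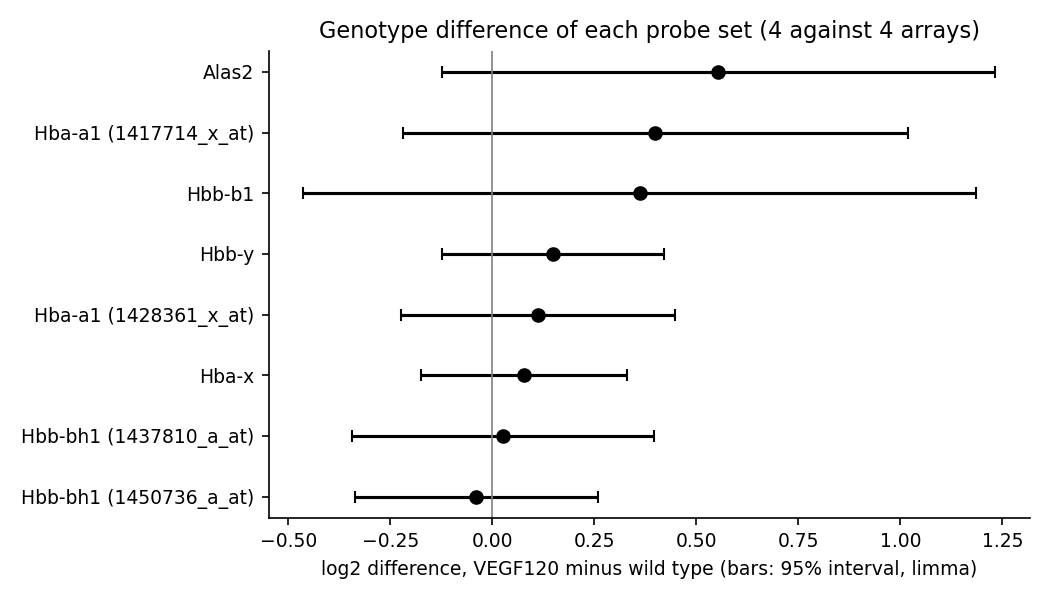
Log2 difference of each probe set, VEGF120 minus wild type, with the 95% interval from limma, over 4 arrays a genotype. Every interval crosses 0, and those of Hbb-b1, Alas2 and Hba-a1 by 1417714_x_at are the widest and reach 1.02 or more at their upper end.

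Counted over the set, 7 of 8 probe sets had a difference above 0, where 57.2% of all tested probe sets did. The median difference of the 8 was 0.13, against 0.04 over all tested probe sets. Limma called 0 of the 8 at an adjusted p under 0.05, against 0% of all tested, and 0 of the 8 at an unadjusted p under 0.05, where 9.76% of all tested had one. The arrays of the genotypes were wholly apart for 0 of the 8, against 5% of all tested. A log2 difference of at least 0.5 was seen for 1 of the 8, Alas2, and for 6.59% of all tested. None of the 8 is among the 330 probe sets that the authors' deposited table lists as changed. With each array centred on its median the differences of Hba-x, of the brighter Hba-a1 probe set and of Hbb-bh1 by 1437810_a_at turned to −0.05, −0.01 and −0.10, so none of these 3 has a settled direction.

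The spread between arrays is given as a description with no test. The SD of Hbb-b1 was 0.43 in wild type and 1.03 in VEGF120, and 0.533% of all tested probe sets had a VEGF120 SD as large. For Alas2 the SDs were 0.43 and 0.78 and for Hba-a1 by 1417714_x_at they were 0.24 and 0.78, with VEGF120 SDs as large in 2.56% and 2.53% of tested probe sets. For Hbb-y the SD went the other way, 0.30 in wild type and 0.09 in VEGF120. Over all tested probe sets the median SD was 0.21 in wild type and 0.24 in VEGF120.

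The members rose and fell together over the arrays. Of the 28 pairs of member probe sets, 28 had a Pearson r above 0 over the 8 arrays, from 0.44 to 0.95, with a median of 0.80. The points of an array share its scaling and may share its amount of blood, which was not measured apart, and no p is given. Hbb-y followed the others least, with an r of 0.64 against the mean of the other 7, and the brighter Hba-a1 probe set followed them most, at 0.98. The mean of the 8 log2 signals, taken here as a measure of blood content relative to the wild type mean, was −0.05, −0.27, 0.35 and −0.03 on wild type replicates 1 to 4. On VEGF120 replicates 1 to 4 it was −0.02, 0.45, 0.70 and −0.32. By this mean VEGF120 held both the highest and the lowest arrays, a range of 2.03-fold over all 8. By the 5 brightest members alone wild type replicate 2 was lowest, at −0.26. Wild type replicate 3 and VEGF120 replicate 3 were then highest and near equal, both at 0.33. The genotype means of the 8 differed by 0.20 ± 0.26 (SE), less than the SD of 0.46 between VEGF120 arrays. That difference was 0.04 without VEGF120 replicate 3 and 0.38 without VEGF120 replicate 4.

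The upper end of the array moved with the 5 brightest members, which include 1 probe set of adult Hba-a1, on some arrays and less so on others. The 150 other probe sets of highest mean signal were on average 0.20 above the wild type mean on wild type replicate 3 and 0.19 below it, at −0.19, on wild type replicate 2. The 5 brightest members stood at 0.33 and −0.26 on the same arrays. After quantile normalization, which gives all arrays the same distribution, those members stood at 0.12 and −0.07, and their SD went from 0.25 to 0.10 over wild type arrays and from 0.24 to 0.15 over VEGF120 arrays. VEGF120 replicate 3 was then the highest array for the 5 brightest members, at 0.21. The SD of the 150 others before normalization was 0.19 in wild type and 0.10 in VEGF120. Before normalization these others stood at 0.11, −0.001 and 0.04 on wild type replicate 4 and VEGF120 replicates 1 and 2. The 5 brightest members stood at 0.01, −0.08 and 0.20 there, so the sizes differed. The 3 dimmer probe sets, of Hbb-b1, Alas2 and Hba-a1 by 1417714_x_at, were hardly altered, with SDs over VEGF120 arrays of 0.83 before and 0.83 after. On VEGF120 replicates 2 and 3 the dimmer probe sets stood at 0.87 and 1.33 before and 0.90 and 1.34 after quantile normalization. The split at a brightness rank was made after the values were seen.

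**Figure D3:**
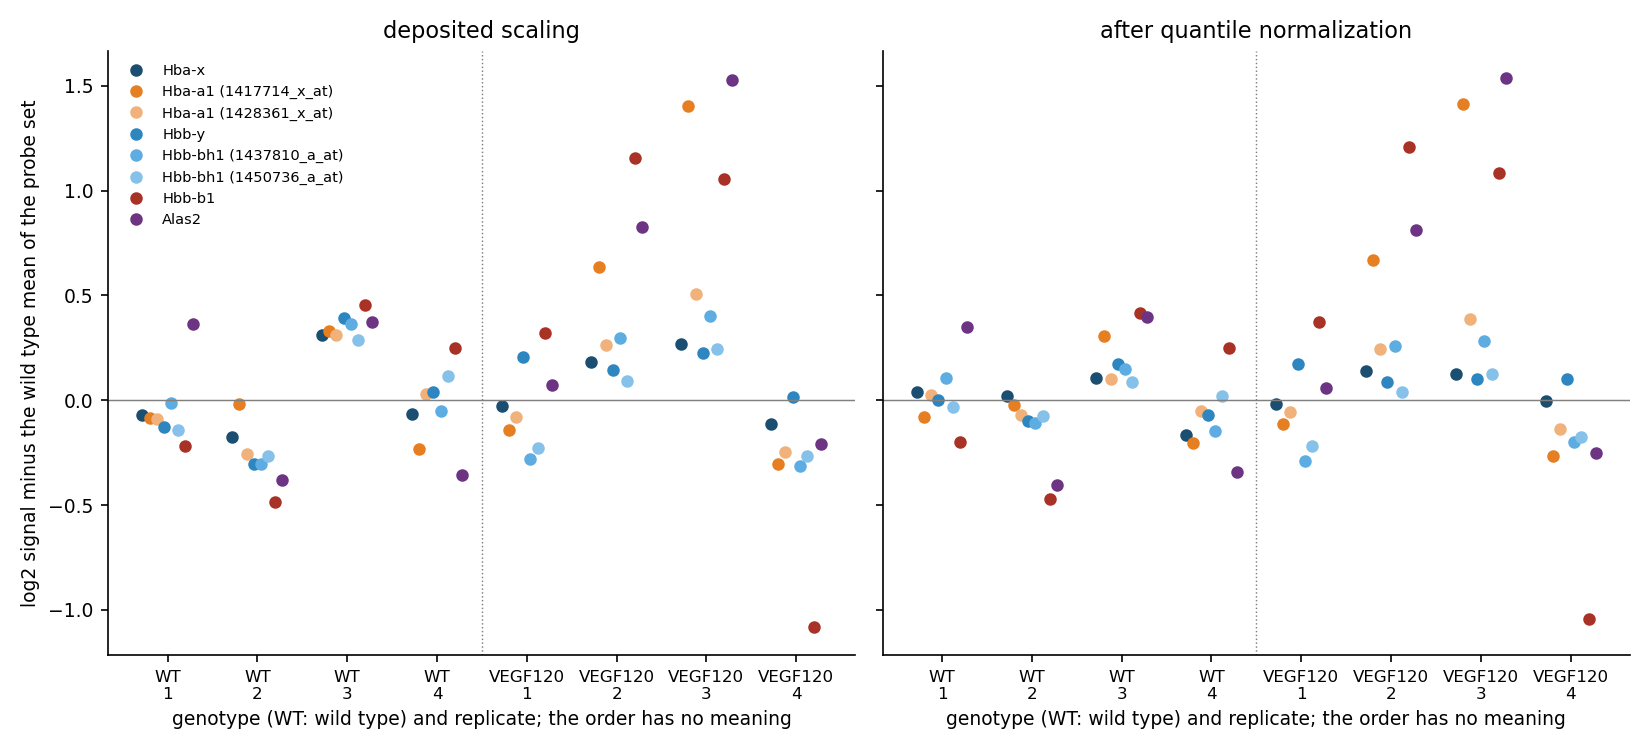
Log2 signal of each probe set minus its wild type mean, by array, on the deposited scaling (left) and after quantile normalization (right), with 1 colour per probe set. The embryonic globins (blues) stay within 0.5 of 0 on every array, whereas Hbb-b1, Alas2 and Hba-a1 by 1417714_x_at rise above 0.5 on VEGF120 replicates 2 and 3 on both scalings and Hbb-b1 falls to −1.08 on VEGF120 replicate 4 on the deposited scaling.

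The 2 probe sets of Hba-a1 shared their 3 highest arrays, VEGF120 replicates 2 and 3 and wild type replicate 3, but not their range. Their Pearson r over the 8 arrays was 0.88 (two-sided exact permutation p = 0.00417, adjusted 0.00417 over 2 pairs) and Spearman's rho was 0.64 (exact permutation p = 0.0962, adjusted 0.0962). Without VEGF120 replicates 2 and 3, the arrays farthest from the median, r was 0.73 and rho was 0.20, so the agreement in rank rested on those arrays. The dimmer probe set read 0.37 and 0.90 higher relative to the brighter one on VEGF120 replicates 2 and 3 than in the wild type mean. The 2 probe sets of Hbb-bh1, both bright, had an r of 0.92 (exact permutation p = 0.00389, adjusted 0.00417) and a rho of 0.90 (exact permutation p = 0.00456, adjusted 0.00913), with an r of 0.83 without VEGF120 replicate 3 and wild type replicate 3. Within VEGF120 alone r was 0.99 for both genes, over 4 arrays and as a description. Some pairs of different genes correlated as strongly, with an r of 0.95 for Hba-a1 by 1428361_x_at and Hbb-bh1 by 1437810_a_at. Over all 28 member pairs r ran from 0.44 to 0.95, with a median of 0.80. All probe sets share the scaling of an array, so these p-values do not set agreement within a gene apart from that between genes. The files hold no probe-level values, so whether bright probe sets were compressed near the top of the scanner range was not tested.

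**Figure D4:**
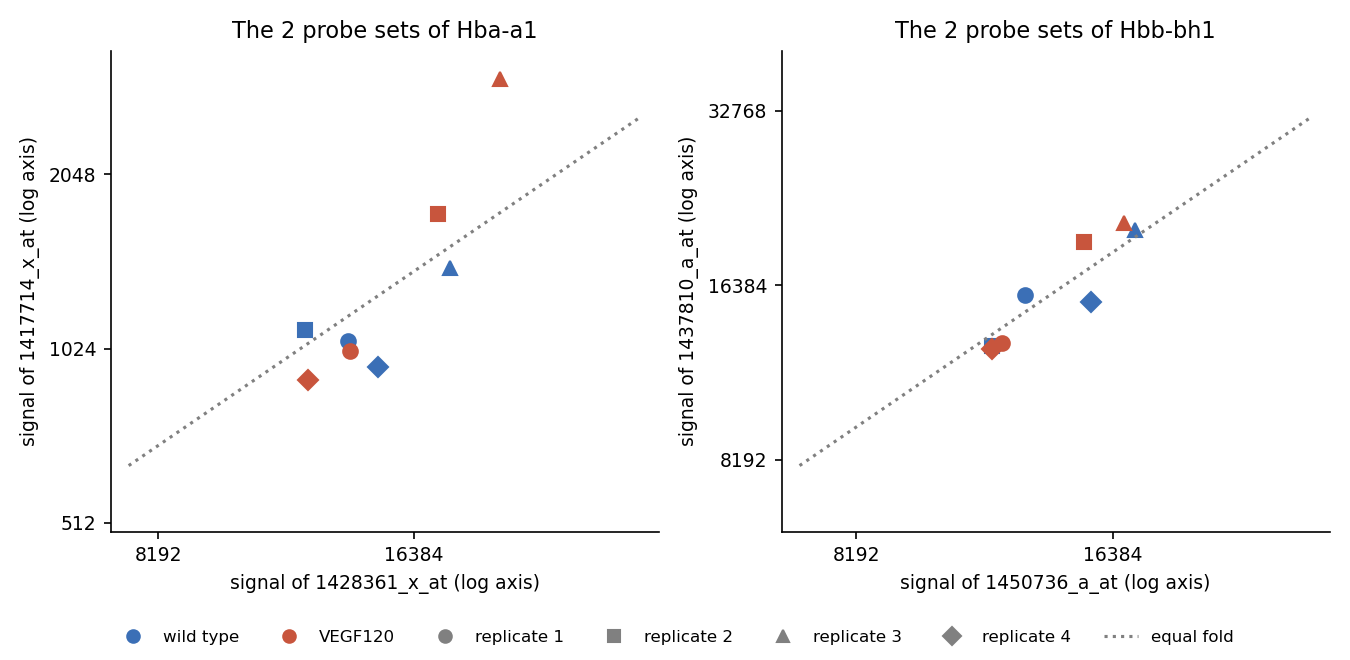
Signal of the 2 probe sets of Hba-a1 (left) and of Hbb-bh1 (right) on each array, both axes logarithmic, with wild type in blue and VEGF120 in red. Points along the dotted line change by the same fold in both probe sets. For Hba-a1 the dimmer probe set spans 3.30-fold over all arrays and the brighter one 1.69-fold, and VEGF120 replicates 2 and 3 lie above the line.

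The balance of embryonic to adult globin was taken as a log2 difference within each array, in which a change by the same fold in both genes cancels, and is given relative to the wild type mean, because probe affinities set its absolute level. The embryonic probe sets are bright and most adult ones dim, and since the bright and the dim probe set of Hba-a1 did not change by the same fold, these balances need not be free of the amount of blood. For the alpha-like genes, Hba-x minus the mean of both Hba-a1 probe sets, wild type arrays lay between −0.04 and 0.04. VEGF120 replicates 1 to 4 read 0.08, −0.27, −0.69 and 0.16, and these lay outside the wild type range, 2 towards Hba-x and 2 towards Hba-a1. The wild type range was wider by either Hba-a1 probe set alone, since they moved the balance in opposite directions on wild type replicates 2 and 4. With 1417714_x_at alone it was −0.16 to 0.17, and VEGF120 replicate 1 lay inside it, at 0.11. With 1428361_x_at alone it was −0.09 to 0.08, and VEGF120 replicates 1 and 2 lay inside it, at 0.06 and −0.08. The genotype means differed by −0.18 ± 0.19 (SE), less than the SD of 0.39 between VEGF120 arrays. The size depended on the Hba-a1 probe set: the difference was −0.32 with 1417714_x_at alone and −0.03 with 1428361_x_at alone, and it was −0.01 without VEGF120 replicate 3 and −0.29 without VEGF120 replicate 4.

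For the beta-like genes, Hbb-y and Hbb-bh1 minus Hbb-b1, wild type arrays read 0.11, 0.19, −0.09 and −0.21. VEGF120 arrays read −0.34, −0.98, −0.78 and 0.95, so replicates 1 to 3 lay on the adult side of every wild type array and replicate 4 on the embryonic side. On replicate 4, the array with the highest 3′ to 5′ ratios, Hbb-b1 alone stood at −1.08 relative to its wild type mean. The part of RNA quality in that balance was not tested. With Hbb-y alone in place of both embryonic genes, VEGF120 replicate 1 read −0.11, inside the wild type range of −0.21 to 0.18. The genotype means differed by −0.29 ± 0.44 (SE) against an SD of 0.87 between VEGF120 arrays. Without VEGF120 replicate 4 the difference was −0.70, without VEGF120 replicate 2 it was −0.06 and without VEGF120 replicate 3 it was −0.13. Both balances were lowest on VEGF120 replicates 2 and 3, the arrays with the highest mean of the 8, a mean that holds the same adult probe sets. By the 5 brightest members wild type replicate 3 and VEGF120 replicate 3 were near equal, both at 0.33 relative to the wild type mean. After quantile normalization the beta balance differed by −0.36 between genotypes.

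The balance between the embryonic beta-like genes was taken as Hbb-bh1 minus Hbb-y, the genes that primitive cells switch between as they mature. Whether it tracked maturation on these arrays was not tested. Wild type arrays lay between −0.07 and 0.05, and VEGF120 arrays read −0.46, 0.05, 0.10 and −0.31, with replicates 1 and 4 on the Hbb-y side. The genotype means differed by −0.15 ± 0.14 (SE), less than the SD of 0.27 between VEGF120 arrays, and the difference was −0.05 without VEGF120 replicate 1 and −0.24 without VEGF120 replicate 3. Alas2 relative to the 5 globin genes read 0.48, −0.10, 0.01 and −0.39 in wild type and 0.04, 0.40, 0.96 and 0.14 in VEGF120, a difference of 0.39 ± 0.27 (SE) with overlapping arrays and a value of 0.19 without VEGF120 replicate 3 and 0.26 without wild type replicate 4. The 4 balances are scores over chosen members and carry no p.

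**Figure D5:**
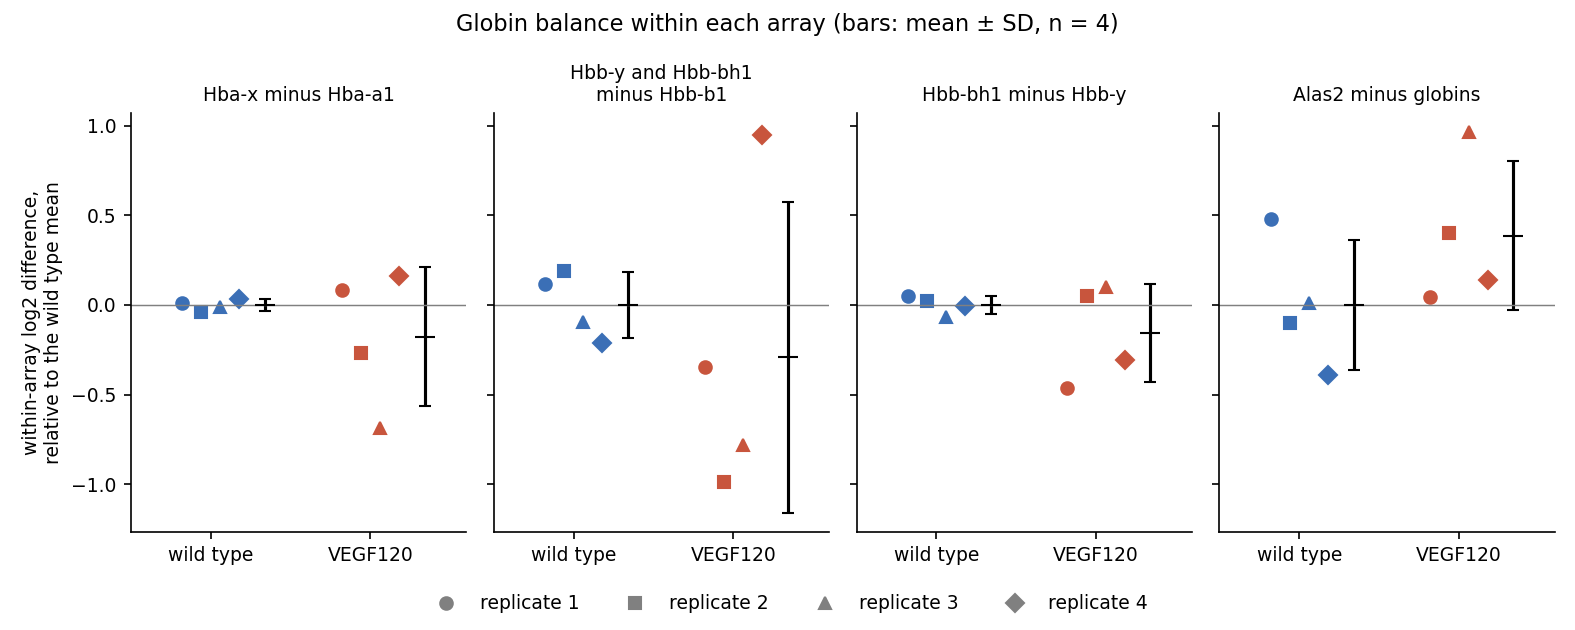
Within-array log2 differences between globins, relative to the wild type mean, for 4 wild type (blue) and 4 VEGF120 (red) arrays, with the mean ± SD beside each group. The wild type arrays lie within 0.04 of 0 for the alpha-like balance and within 0.21 for the beta-like balance, and the VEGF120 arrays spread from −0.69 to 0.16 and from −0.98 to 0.95. By a single Hba-a1 probe set, which is not drawn, wild type arrays lie between −0.16 and 0.17 (1417714_x_at) or −0.09 and 0.08 (1428361_x_at). The value of 0.95 is that of VEGF120 replicate 4, the array with the highest 3′ to 5′ ratios.

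Of the 27014 other tested probe sets, 65 (0.241%) had a Pearson r of at least 0.9 with the mean of the 8 members over the 8 arrays, and 89 had an r at least as far below 0. Against the mean of the other 7, 3 of the 8 members themselves reached 0.9. Names were at hand for 94 of the tested probe sets, those of the authors' deposited table, which were picked for a difference between the genotypes. Among those reported here the most similar were Rcor2, a corepressor of neural genes, at an r of 0.63, the homeobox factor Cux1 at 0.58 and the pro-apoptotic Bak1 at 0.48. Rcor2 read 9.31 to 9.45 (log2 signal) in wild type and 9.42, 10.70, 10.35 and 9.83 in VEGF120, so that VEGF120 replicates 2 and 3 were high for it as for Hbb-b1 and Alas2. Pdk1, Prrx1, Dlk1, Rnf10 and Lipo3 had an r of 0.39 to 0.44. No other globin, haem synthesis or red cell membrane gene, and no marker of platelets, macrophages, endothelium or forebrain neuroepithelium from the lists drawn up, carried a name here, and these are not analysed here. Of the erythroid transcription factors listed, Bcl11a alone carried a name, and it did not pass the brightness filter.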

How the data were processed

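The deposited table holds a linear intensity for each probe set on each array; MAS5 and Affymetrix Expression Console are named in the submitters' processing notes, without versions. Trimming 2% of values at each end left a mean of 250 on every array. A further table gives the authors' comparison of PLIER signals, per the file headers, with a fold (ratio) that carries no sign. It was used for names and for whether a probe set is listed; its 12 columns of per-array values were not used. Signals were taken as log2(value + 16), after removal of 64 controls, and a mean log2 signal at or above the 40th percentile was required. Genotypes were compared with limma (3.58.1, R 4.3.3; lmFit, eBayes with an intensity trend), adjusted by Benjamini-Hochberg over 27022 probe sets, a fit tested on simulated data. Array balances and the blood measure carry no test. Members and lists were chosen with earlier results of these data known, and members take their gene names from the list that chose them, since the files used here do not name them. The genes named beside the members are from the 10 named probe sets most correlated with their mean, some of which are not reported here. Alternatives changed the added value, scaling, filter, variance model, array weights, block, test, probe set and arrays. Promoter sequences are from RefSeq (GRCm38.p6). Descriptive values and plots used Python 3.11.15 and matplotlib 3.10.9.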

Additional observations from a re-analysis of the deposited data

How the results depend on the processing

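Of 152 values of the 8 probe sets under alternatives, 140 kept their direction. Direction was kept in all 19 alternatives for 4 probe sets, of Hbb-y, Hbb-b1, Alas2 and Hba-a1 by 1417714_x_at. Even so, Hbb-y fell to 0.0248 and Hbb-b1 to 0.238 with arrays centred on their median. The alternatives of filter, intensity trend, block and test cannot alter a log2 difference, so direction was bound to be kept there. With arrays centred on their median, which subtracts a genotype difference in array medians, Hba-x was at −0.0453, Hba-a1 by 1428361_x_at at −0.0120 and Hbb-bh1 by 1437810_a_at at −0.0972. With 1 array left out, Hba-a1 by 1428361_x_at ranged from −0.0209 to 0.230, Hbb-bh1 by 1437810_a_at from −0.100 to 0.148 and Hbb-bh1 by 1450736_a_at from −0.135 to 0.0564; the last was at 0.000249 with array weights and 0.0756 without both replicates numbered 4, an alternative chosen after seeing the data. No alternative called a member at an adjusted p under 0.05, and the lowest adjusted p of a member was 0.416, for Alas2 without VEGF120 replicate 1. Over the whole table limma called 0 probe sets, or, with 1 array left out, from 0 to 1, the 1 being without VEGF120 replicate 1. The labels do not say that replicate numbers pair arrays. Deviations of same-numbered arrays correlated above 0.1 in 1 of 4 pairs. With no differently numbered arrays compared beside them, this does not settle whether arrays were paired. With the replicate block 0 members and 0 of 27022 probe sets were called at an adjusted p under 0.05. The count of members at an unadjusted p under 0.05 went from 0 to 2, where 2358 of all tested had one. Hba-a1 by 1417714_x_at went from a limma unadjusted p of 0.187 to 0.0481 (adjusted p = 0.571), and Alas2 from a limma unadjusted p of 0.101 to 0.0352 (adjusted p = 0.565). The blood measure differed between genotypes by 0.0381 to 0.378 with 1 array left out, and by 0.0817 with arrays centred on their median. The cause of these shifts was not tested.

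Of 36 groups of 4 arrays examined for an array far from the other 3, none held one, where chance gives about 1.8; with 4 arrays a group this finds only wide gaps.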
